A study of Arabidopsis thaliana with 123 samples.

Results

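Mitochondria-encoded transcripts were followed in poly(A)-selected RNA-seq libraries from seeds of Arabidopsis thaliana. The table of raw counts held 152 rows whose gene identifier starts with ATMG, the prefix of the mitochondrial genome, and the 90 rows with a summed count of at least 100 over all 123 libraries are described here as the members. Members were chosen by the identifier and by this summed count, so the size of the sums is a description and no finding. The 2 lowest members, ATMG01100 and ATMG00330, each summed to 102 counts, and the highest rows left out summed to 99 and 92. The 62 rows left out held 2138 counts, 0.212% of all counts on ATMG rows. The members held 1007222 counts, 0.0725% of the 1389996001 counts in the table. In 4 pairs of members the counts were identical in every library, which left 86 distinct rows.

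The mitochondrial genome of a plant encodes a small part of the respiratory chain and of the organelle's own translation machinery: subunits of complex I, cytochrome b of complex III, subunits of cytochrome c oxidase (complex IV), subunits of the ATP synthase, factors for cytochrome c maturation, ribosomal proteins and ribosomal RNAs, with a few others such as a maturase and a transport protein. Most mitochondrial proteins are encoded in the nucleus and imported. Maturing seeds lose water and become metabolically quiet, and respiration resumes early in imbibition with mitochondria already present in the dry seed. In plant mitochondria a poly(A) tail marks RNA for degradation, so a poly(A)-selected count need not follow the total amount of a mitochondrial transcript. Fewer mitochondria, fewer cells of a type and less RNA per cell cannot be told apart in bulk seed RNA.

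The files give no names for ATMG rows. Notes on chromosome 2 genes in RefSeq (assembly TAIR10.1) name 38 members, 23 of them with a product. Of these, 17 have a respiratory or translational role, and 12 of the 17 were tested in batch A and 15 could be in batch B. The other members are called by their identifier. Counts by role below cover only the 17 members, and other members may encode such subunits too. The notes stand on chromosome 2 because that chromosome carries a large near-identical insertion of mitochondrial DNA. Of 36 protein-coding and rRNA genes compared in the TAIR10.1 mitochondrial sequence, 23 had a copy of at least 95% of their length, all 23 on chromosome 2, and 15 of the copies were identical over the whole length. None of the 3 rRNA genes had such a copy. Reads of a member and of an identical nuclear copy cannot be told apart by sequence.

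The smallest subunit gene of the ATP synthase ring, atp9, shows this. Its coding sequence at positions 270961 to 271185 of the minus strand of the mitochondrial genome is the same, base for base, as positions chr2:3251856-3252080 of the minus strand. The start and stop codons are in capitals.

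atp9 mitochondrial: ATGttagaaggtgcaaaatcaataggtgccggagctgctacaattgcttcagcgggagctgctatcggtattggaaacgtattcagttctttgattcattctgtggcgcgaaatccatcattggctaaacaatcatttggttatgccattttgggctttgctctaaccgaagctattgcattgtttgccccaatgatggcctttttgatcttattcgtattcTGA
atp9 chromosome 2 copy: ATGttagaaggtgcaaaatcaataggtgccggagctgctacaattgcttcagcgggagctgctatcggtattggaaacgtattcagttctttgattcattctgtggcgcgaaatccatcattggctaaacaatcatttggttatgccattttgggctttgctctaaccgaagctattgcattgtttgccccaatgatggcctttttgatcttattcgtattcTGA

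The copy of rpl2, a gene for a protein of the large ribosomal subunit, differed from the mitochondrial gene at 4 of 2701 bases. A stretch at positions 222061 to 222121 of the minus strand of the mitochondrial genome and its copy at chr2:3411669-3411729 of the plus strand is shown because it holds a pair of neighbouring differences, in capitals.

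rpl2 mitochondrial: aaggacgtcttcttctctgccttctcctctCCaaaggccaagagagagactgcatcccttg
rpl2 chromosome 2 copy: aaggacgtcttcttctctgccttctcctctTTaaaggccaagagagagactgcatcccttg

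The seeds came from wild type Col-0 and 10 lines in the same accession, sampled by days after pollination (DAP) and as dry seed, which the titles give as 26d+. Wild type was sampled at 8 stages from 12 DAP to dry seed in batch A and at 5 stages from 18 DAP in batch B. The batches are experimental rounds 2 and 3, and plants within a round were grown together. The lines are abi3-6 and abi3-12 (ABI3, a B3 transcription factor of seed maturation), dog1-4 (DOG1, a dormancy protein) and aba2-1 (ABA2, an enzyme of abscisic acid synthesis). Combined lines are abi3-12 dog1-4, dog1-4 aba2-1, abi3-12 aba2-1, abi3-12 dog1-4 aba2-1 and abi3-12 dog1-4 cyp707a2, the last of which also lacks CYP707A2, an enzyme that breaks down abscisic acid. All of these are labelled knock-outs, also abi3-12, and L2-1 is labelled a transgenic line carrying DOG1-Cvi. Each of 37 groups had 3 libraries and 6 had 2, and each library came from the pooled seeds of several siliques. The protocols call the replicates biological but do not tie them to separate plants, so the p-values measure the spread between pools, which share their growth round. Totals per library ran from 2577281 to 20277489 counts, with a median of 11678153.

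ATMG00020 and ATMG01390 together took 836797 counts, 83.1% of all member counts, while the other 88 members shared 170425 counts with a median sum of 522. The files and the annotation used here give neither row a product. In wild type batch B, ATMG00020 stood at 390.2, 426 and 384 CPM at 18 DAP, where CPM is the count scaled to a common library size with TMM factors. In dry seed it stood at 299, 285 and 304 CPM. The dry libraries were lower than those at 18 DAP, but its log2 fold change of -0.43 ± 0.35 (SE) did not pass the test (edgeR quasi-likelihood, adjusted p = 0.271). ATMG01390 gave -0.15 ± 0.31 there (adjusted p = 0.712). Batch A was more scattered, with ATMG00020 at 213, 196 and 203 CPM when sampled at 18 DAP and 464, 126 and 193 CPM when dry. The changes there were 0.36 ± 0.41 (adjusted p = 0.475) and 0.42 ± 0.35 (adjusted p = 0.31).

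These 2 rows varied between libraries of one group along with plastid-encoded transcripts. In 10 of the 43 groups their summed share of all counts differed by over 2-fold between libraries, and the largest ratio was 3.90, in abi3-12 dog1-4 at 22 DAP. In 30 of the 37 groups of 3 libraries, the library with the highest share of this pair was also the highest for the plastid rows, against 20 of 37 for the other 88 members. The order of all 3 libraries was the same in 26 groups for the pair and in 13 for the 88. The part of library preparation in this was not tested.

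The summed level of the other 88 members stepped up late in wild type. At 18 DAP their summed level in batch A was 40.0, 42.4 and 42.6 CPM. At 20 DAP the libraries held 39.1, 67.9 and 44.6 CPM. By 22 DAP the sums were 159, 187 and 161 CPM, with 152 and 142 CPM on 24 DAP. Dry seed held 233, 185 and 169 CPM. The libraries up to 20 DAP and those from 22 DAP on did not overlap. The step came later in batch B. Its sums were 53.6, 61.9 and 62.0 CPM for 18 DAP, 71.3, 53.1 and 57.3 CPM for 20 DAP and 75.4, 58.9 and 90.0 CPM for 22 DAP. They reached 206, 192 and 225 CPM by 24 DAP, and dry seed held 292, 319 and 303 CPM.

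**Figure D1:**
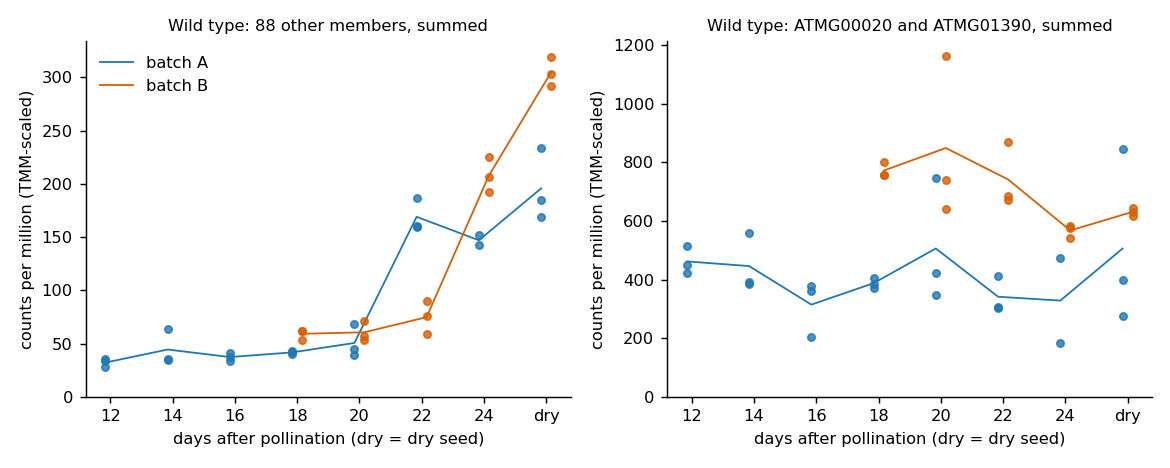
Summed CPM (TMM-scaled) of the 88 other members (left) and of ATMG00020 and ATMG01390 (right) against days after pollination in wild type, with points for libraries and lines through group means. The 88 members step up between 20 and 22 DAP in batch A and between 22 and 24 DAP in batch B, while the pair shows no such step.

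The filter on low counts left 44 members to test in batch A, 55 in batch B, with 35 tested in neither. It passes a row that is high in 1 group, among members as among all genes. A member that passes only through late or dry groups can hardly fall toward them. The part of such members in the shares below was not tested. From 20 to 22 DAP in batch A, 28 of 44 members rose and none fell, with a median log2 fold change of 1.57, where 22.6% of all 20414 genes tested rose. From 22 to 24 DAP in batch B, 28 of 55 rose and none fell, with a median of 1.18, against 14.5% of all 20912 genes. This count was 15 without wild type 22 DAP replicate 2 and 18 without replicate 1. Of the 28 members that rose in either batch, 22 were the same, 78.6% of each list.

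The steps on either side held few calls. In batch A, 1 member rose from 18 to 20 DAP (24.4% of all genes rose). None was called from 22 to 24 DAP (0.0294% of all genes) and none from 24 DAP to dry seed (0.0245%). At an unadjusted p under 0.05 there were 2 and 7 members in these steps, and DESeq2 called 0 in both. Over the earlier stages, from 12 to 18 DAP, 1 member fell, where 73.1% of all genes changed. The count and direction moved with the settings, and 2 members rose and none fell without 12 DAP replicate 2. In batch B, 1 member rose from 18 to 20 DAP (23.4% of all genes rose). None was called from 20 to 22 DAP (43.9% of all genes) and none from 24 DAP to dry seed (0.11%). At an unadjusted p under 0.05 there were 1 and 16, and DESeq2 called 0 and 1.

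Over the whole span from 18 DAP to dry seed, 37 of 44 members rose in batch A, with a median of 1.94 (30.5% of all genes rose). In batch B 37 of 55 rose and 1 fell, with a median of 1.98 (31.8% of all genes rose). Among the members tested there, ATMG00285, ATMG01120 and ATMG00580 had no count at 18 DAP, so they could not have fallen. The lists shared 33 members, 89.2% of each. For the change from 18 DAP to dry seed no member differed between batches in the joint wild-type fit of 47 members, and 16.3% of all genes did. None of the 47 had an unadjusted p under 0.05 there, and DESeq2 also called none.

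The largest group with a named role was the ATP synthase, whose rotor and catalytic head make ATP. Transcripts of atp1 (ATMG01190), the alpha subunit of the head, stood at 3.42, 6.91 and 3.84 CPM at 20 DAP and at 24.5, 29.3 and 23.5 CPM at 22 DAP in batch A. The rise of 2.49 ± 0.25 (SE) on the log2 scale passed the test (adjusted p = 1.61e-08). In batch B atp1 stood at 9.97, 6.33 and 12.4 CPM at 22 DAP and at 34.3, 37.6 and 45.9 CPM at 24 DAP, a rise of 2.11 ± 0.31 (adjusted p = 2.98e-07). No library before the step overlapped one after it in either batch.

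A row that RefSeq describes as a second ATP synthase 9 gene, ATMG01090, had the largest rise from 18 DAP to dry seed in batch A among called members with a mean of at least 5 CPM. It went from 0.746, 0.302 and 0.334 CPM to 8.74, 6.89 and 6.30 CPM, a rise of 3.90 ± 0.33 (adjusted p = 1.48e-10). In batch B it rose by 4.30 ± 0.35 (adjusted p = 1.19e-17). The largest rise by this rule in batch B was that of ATMG01120, a row without a product in the RefSeq notes. It had no count in the 3 libraries of 18 DAP and stood at 5.30, 6.09 and 5.56 CPM in dry seed. Against a floor of 3 counts over the group it was at least 26.6-fold higher. Of the 5 ATP synthase rows named in the RefSeq notes and tested, 5 rose from 18 DAP to dry seed in batch A and 4 in batch B.

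Of the respiratory complexes, cox3 (ATMG00730), a core subunit of cytochrome c oxidase, rose from 1.12, 0.755 and 1.34 CPM at 18 DAP to 4.23, 3.01 and 3.73 CPM in dry seed of batch A. The change was 1.80 ± 0.34 (adjusted p = 5.13e-05), and in batch B it was 2.85 ± 0.47 (adjusted p = 2.53e-07). Both complex IV rows named in the RefSeq notes rose from 18 DAP to dry seed in both batches. So did the only complex III row named there, cob (ATMG00220), the apocytochrome b gene. Of the complex I rows named in the RefSeq notes, nad2B (ATMG01320) was the only one tested in batch A. It rose by 2.89 ± 0.46 (adjusted p = 4.85e-06). In batch B nad2B and nad1A (ATMG01275) rose and nad3 did not pass the test. Neither cytochrome c maturation row named in the notes could be tested in either batch.

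Of 4 ribosomal protein genes named in the RefSeq notes and tested in batch B, 3 rose from 18 DAP to dry seed and rps12 fell. The rises were 2.68 ± 0.54 for rpl5 (adjusted p = 1.30e-05) and 3.56 ± 0.55 for rps7 (adjusted p = 0.000155), besides rps4, and in batch A rpl5 and rps4 rose and rps12 did not pass. Transcripts of rps4 (ATMG00290), a small subunit protein, stood at 0.342, 0.532 and 0.329 CPM at 20 DAP and 3.07, 3.81 and 3.21 CPM at 22 DAP in batch A, a rise of 3.08 ± 0.34 (adjusted p = 7.15e-08). In batch B the step from 22 to 24 DAP was 2.53 ± 0.52 (adjusted p = 0.000109). The gene rps12 (ATMG00980), for another small subunit protein, was the member that fell in batch B. At 18 DAP it had 2.13, 2.70 and 2.95 CPM and in dry seed 1.46, 1.27 and 1.53 CPM, a log2 fold change of -0.91 ± 0.39 (adjusted p = 0.0378). In batch A its change was 0.23 ± 0.60 (adjusted p = 0.799), with 1 library at 0 at 18 DAP.

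The complex I gene nad3 (ATMG00990) lies next to rps12 on the same strand of the mitochondrial sequence, with 45 bases between them. Its level in batch B was 0.851, 0.899 and 0.393 CPM on 18 DAP, and dry seed held 0.640, 0.677 and 0.808 CPM. The groups overlapped and the change did not pass the test.

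**Figure D2:**
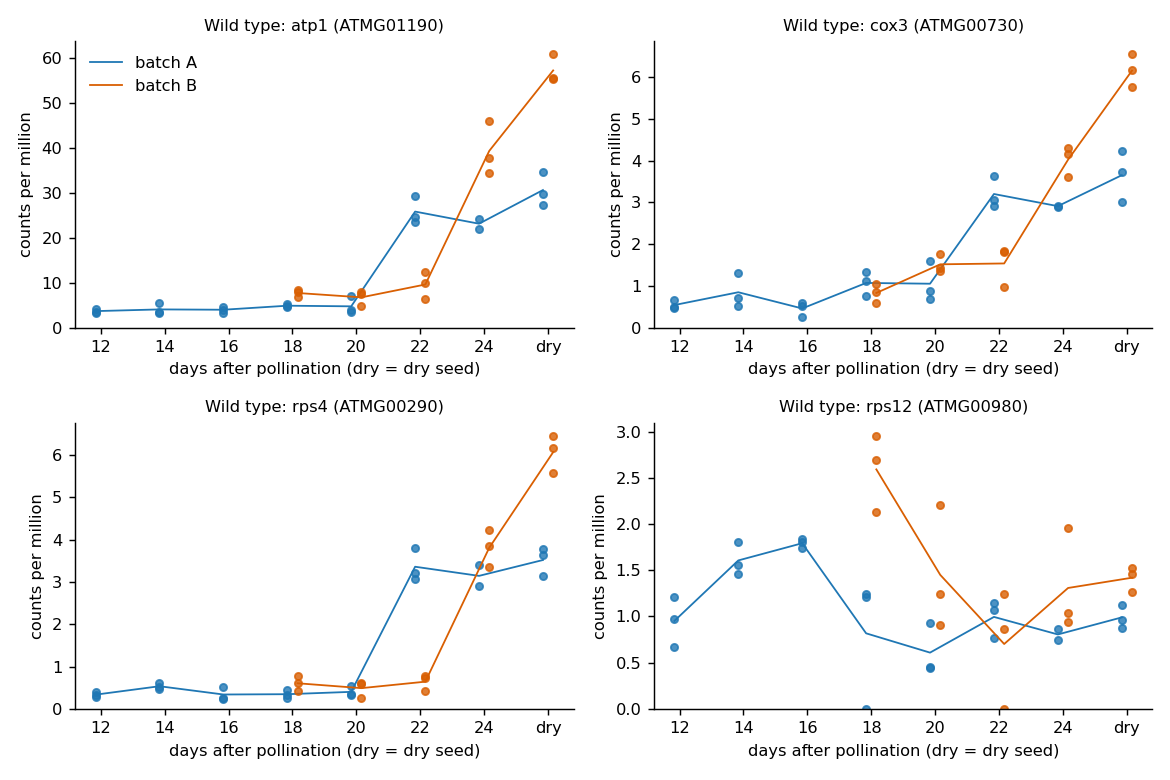
CPM of atp1, cox3, rps4 and rps12 against days after pollination in wild type, with points for libraries and lines through group means. atp1, cox3 and rps4 step up late and rps12 does not, falling in batch B from 2.13 to 2.95 CPM at 18 DAP to 1.27 to 1.53 CPM in dry seed.

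The date of the step differed between the rounds. At 22 DAP, 28 of 47 members were lower in batch B than in batch A and 1 was higher, with a median of -1.21, where 7.69% of all 19126 genes were lower. This count was 18 without batch B replicate 1. The gap between 22 DAP and dry seed was wider in batch B for 28 members (4.88% of all genes went the same way). For atp1 the batch difference at 22 DAP was -1.74 ± 0.19 (adjusted p = 5.45e-08) and for cox3 -1.31 ± 0.27 (adjusted p = 0.000729). Round, growth and sequencing cannot be told apart in this comparison.

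Storage protein transcripts moved the other way. The 9 storage protein genes took 34.1 to 36.7% of all counts in the 18 DAP libraries of wild type batch A. By 20 DAP this was 8.98 to 12.4%, and by 22 DAP 4.92 to 5.84%. In batch B their share was 42.2 to 43.5% on 18 DAP, 23.5 to 34.2% on 20 DAP, 7.49 to 10.8% on 22 DAP and 5.37 to 5.70% on 24 DAP. With TMM factors from nuclear genes without the storage genes, 37 members were called for dry against 18 DAP in batch A and 38 in batch B, beside 37 and 38 above. Seed coat markers also fell, from 299 to 414 summed CPM at 18 DAP to 1.00 to 1.73 CPM in dry seed of batch A. Their part in the result was not tested.

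Nuclear genes for the same complexes did not rise as a group. Of 51 nuclear subunit genes of complexes I to V, 10 rose and 27 fell from 18 DAP to dry seed in batch A, with a median of -0.27. In batch B 15 rose and 26 fell, with a median of -0.35. Of all genes 30.5% rose and 33.2% fell in batch A, and 31.8% rose and 34.8% fell in batch B. Of nuclear complex II genes SDH2-1, an iron-sulfur subunit, fell by 1.45 (SE 0.25) and by 1.68 (SE 0.27) on the log2 scale. The complex III gene AT5G25450 went the other way, with a rise of 2.03 ± 0.23 in batch A and 5.0 ± 0.49 in batch B. Of 10 nuclear genes for mitochondrial gene expression, 8 rose in batch A and 9 in batch B. Of 5 genes for maintenance of mitochondrial DNA, 5 rose in each batch, among them RECA3, a recombinase, with 1.66 ± 0.20 in batch A and MSH1, which limits recombination between repeats, with 2.24 ± 0.18 in batch B. Of the plastid rows tested, 13 of 60 rose and 4 fell in batch A, and 13 of 72 rose and 12 fell in batch B.

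Many rows of chromosome 2 that RefSeq pairs with a member were called in the same comparisons. From 18 DAP to dry seed in batch A, 14 of 15 paired members and 13 of their partners rose, with medians of 1.86 and 2.09. In batch B 17 of 23 paired members and 19 partners rose, and 1 of each fell. Exceptions were ATMG01090, whose partner AT2G07777 was not called (-4.83 ± 7.41, adjusted p = 0.6), and ATMG00590, which was not called at 0.66 ± 0.37 (adjusted p = 0.156) while AT2G07718 rose by 1.91 ± 0.24 (adjusted p = 2.23e-10). Members with an annotated partner had a median of 1.88 in batch A (16 members) and 2.20 in batch B (23 members). Those without, ATMG00020 and ATMG01390 left aside, had 2.18 (26 members) and 1.89 (30 members). Differences between members and partners were not tested.

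In abi3-6 the members were lowest at 20 DAP and had risen by 22 DAP. The 88 members summed to 13.6 and 12.8 CPM at 20 DAP, below the wild type's 39.1, 67.9 and 44.6 CPM, and to 160.1 and 126 CPM at 22 DAP, beside 159, 187 and 161 CPM. At 20 DAP 27 of 44 members were lower in abi3-6 and none higher, with a median of -1.93, where 35% of all genes were lower. This rests on 2 libraries of 134 and 158 counts over the 88 members, and 13 were called without replicate 2. Scaling by library totals alone gave 6 lower and 1 higher.

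Transcripts of atp1 stood at 1.32 and 1.46 CPM in abi3-6 at 20 DAP, -1.72 ± 0.44 against wild type (adjusted p = 0.00104), and those of cox3 at 0.304 and 0.162 CPM, -2.14 ± 0.61 (adjusted p = 0.00271). The called member with the largest fall and a mean of at least 5 CPM was ATMG01360, with 0.709 and 0.889 CPM against 4.10, 8.77 and 4.27 CPM in wild type, -2.78 ± 0.66 (adjusted p = 0.000473). From 20 to 22 DAP 32 of 44 members rose within abi3-6 (25.3% of all genes rose), and atp1 rose by 4.34 ± 0.35 (adjusted p = 4.78e-10) to 31.6 and 24.8 CPM. The rise was larger than in wild type for 10 of 44 members by the test of the difference, 22.7% of them beside 18.4% of all genes.

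At the other stages of abi3-6 fewer members were lower than in wild type, 5 at 16 DAP (33.2% of all genes), 3 at 18 DAP (36%), 8 at 22 DAP (33.8%) and 21 of 55 at 24 DAP (35.5%), shares of the members that were near or below those of all genes. Members called higher were 2 at 18 DAP (38.5% of all genes), 2 at 22 DAP (43.6%) and 3 at 24 DAP (42%). In dry seed the 88 members summed to 237, 260.5 and 219 CPM, below each wild-type library, and 17 were lower (34.5% of all genes) and 5 higher (43.2%), with a median of -0.63 beside 0.17 over all genes. Library totals alone raised the median of all genes to 0.72 there, and gave 13 members higher and 6 lower, so the direction in dry abi3-6 rests on the scaling. Library totals also turned the balance at 16 DAP, to 4 higher and none lower, at 18 DAP, to 22 higher and 1 lower, and at 22 DAP, to 7 higher and 6 lower. Nuclear genes of complexes I to V were called higher in 41 of 51 cases and lower in 8 in dry abi3-6, with a median of 0.84.

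Single members of abi3-6 dry seed went apart. The Rubisco-large-chain-like row ATMG00280 stood at 0.972, 0.974 and 0.459 CPM against 0.183, 0.169 and 0.269 CPM in wild type, 1.87 ± 0.44 (adjusted p = 0.00067). Transcripts of atp9 (ATMG01080) stood at 11.7, 13.6 and 11.8 CPM against 6.58, 7.96 and 8.08 CPM, 0.71 ± 0.22 (adjusted p = 0.00284), while atp1 gave -0.16 ± 0.25 (adjusted p = 0.574). The large-subunit protein gene rpl5 (ATMG00210) was lower, -0.81 ± 0.36 (adjusted p = 0.0353), with 2.43, 2.60 and 2.07 CPM against 3.48, 4.91 and 3.95 CPM. Of rows without a product in the RefSeq notes, ATMG00640 was lower, -1.03 ± 0.27 (adjusted p = 0.00045). ATMG00020, another such row, was higher, 1.20 ± 0.35 (adjusted p = 0.00144), with 821, 772 and 447 CPM against 299, 285 and 304 CPM. Of the plastid rows 39 of 72 were called higher in the same seeds (43.2% of all genes). Seed coat markers held 409 to 469 CPM in abi3-6 dry seed against 2.88 to 4.40 CPM in wild type. The part of either in these values was not tested.

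By group mean, dry seed of the single mutants abi3-12, dog1-4 and aba2-1 and of L2-1 lay between wild type and the lines that combine abi3-12 with another loss. The lowest dog1-4 library, at 197 CPM, lay below the highest of abi3-12 dog1-4 cyp707a2, at 203 CPM. The 88 members summed to 292, 319 and 303 CPM in wild type, 232, 247 and 256.4 CPM in abi3-12, 204, 212 and 197 CPM in dog1-4, 221, 212 and 269.7 CPM in aba2-1, and 252, 253 and 269.8 CPM in L2-1. Every library of these lines lay below every wild-type library. The members called lower were 6 of 55 in abi3-12 (14.2% of all genes lower), 12 in dog1-4 (13.7%) with 1 higher, and 1 in aba2-1 (6.22%), shares of the members of which only that in dog1-4 lay above the share of all genes. In L2-1 none changed by edgeR, where 1.01% of all genes did. There 5 members had an unadjusted p under 0.05 and DESeq2 called 1 lower.

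The low calls in these lines moved with the settings in both directions. In fits of only the groups compared, 18 members were called in abi3-12, 23 in dog1-4 and 15 in aba2-1. Without dog1-4 replicate 2 the dog1-4 count was 5 lower, without dog1-4 replicate 3 it was 7 and without wild type replicate 2 or dog1-4 replicate 1 it was 8. Without abi3-12 replicate 1 the abi3-12 count was 3. The single call in aba2-1 was lost without wild type replicate 1 or 2 and without aba2-1 replicate 1 or 2. Library totals alone gave 4 higher and 3 lower in dog1-4. In dog1-4, atp1 stood at 33.4, 33.8 and 31.8 CPM against 55.6, 60.8 and 55.2 CPM in wild type, -0.79 ± 0.26 (adjusted p = 0.0125). In abi3-12 the second ATP synthase 9 row ATMG01090 stood at 6.30, 6.12 and 6.32 CPM against 10.3, 12.5 and 11.4 CPM, -0.87 ± 0.19 (adjusted p = 0.000246). The change of atp1 was -0.61 ± 0.25 in abi3-12 (adjusted p = 0.0629), -0.37 ± 0.25 in aba2-1 (adjusted p = 0.358) and -0.33 ± 0.25 in L2-1 (adjusted p = 0.765). At 24 DAP 8 members were lower in abi3-12 (11.2% of all genes).

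**Figure D3:**
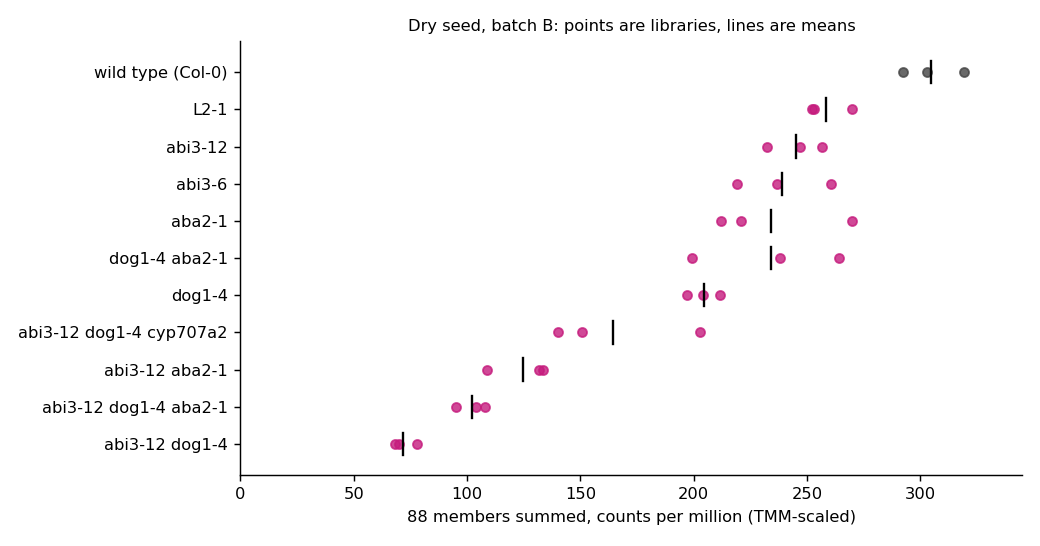
Summed CPM (TMM-scaled) of the 88 members in dry seed of batch B, with 1 point per library and a line at each group's mean, ordered by mean. Wild type is highest at 292 to 319 CPM and abi3-12 dog1-4 lowest at 68.1 to 77.7 CPM.

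Lines that combine abi3-12 with another loss had the lowest mean levels. The 88 members summed to 77.7, 68.1 and 69.8 CPM in abi3-12 dog1-4, 104, 95.3 and 108 CPM in abi3-12 dog1-4 aba2-1, and 109, 133 and 132 CPM in abi3-12 aba2-1. Neighbours in this order did not overlap. The levels were 151, 203 and 140.0 CPM in abi3-12 dog1-4 cyp707a2 and 199, 238 and 264 CPM in dog1-4 aba2-1. Of 55 members, 49 were lower than in wild type in abi3-12 dog1-4 (33.1% of all genes lower), 43 in abi3-12 dog1-4 aba2-1 (34%), 41 in abi3-12 aba2-1 (28.9%), 28 in abi3-12 dog1-4 cyp707a2 (22.2%) and 8 in dog1-4 aba2-1 (23.1%). Apart from 1 member in dog1-4 aba2-1 none was higher in these lines. Of all genes 40.7%, 41.3%, 32.6%, 26.0% and 25.3% were higher, in the order of the counts above.

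In abi3-12 dog1-4 the median log2 fold change was -2.10, beside 0.13 over all genes, and leaving out any 1 library gave 48 or 49 members lower. Transcripts of atp1 stood at 8.70, 7.96 and 7.75 CPM against 55.6, 60.8 and 55.2 CPM in wild type, -2.81 ± 0.28 (adjusted p = 2.98e-14). Those of cox3 stood at 0.896, 0.989 and 1.06 CPM against 5.76, 6.18 and 6.55 CPM, -2.64 ± 0.35 (adjusted p = 3.88e-10). All 15 tested members with a role in the RefSeq notes were lower, where 33.1% of all genes were. They were 5 of the ATP synthase, 3 of complex I, 1 of complex III, 2 of complex IV and 4 of the ribosome.

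Of members without a late rise in wild type, rps12 and nad3 were lower and ATMG00280 was not called (0.08 ± 0.50, adjusted p = 0.952). The values were -1.15 ± 0.39 (adjusted p = 0.0062) for rps12 and -1.56 ± 0.43 (adjusted p = 0.00124) for nad3. The largest called fall with a mean of at least 5 CPM was that of ATMG00640, from 12.8, 11.3 and 10.9 CPM to 1.37, 0.714 and 0.969 CPM, -3.51 ± 0.31 (adjusted p = 5.53e-16). ATMG00020 gave -0.74 ± 0.34 (adjusted p = 0.0497) and ATMG01390 -1.38 ± 0.31 (adjusted p = 7.83e-05). Of 23 members with a chromosome 2 partner 22 were lower, and so were 20 of the partners. In contrast, 41 of the 51 nuclear subunit genes of complexes I to V were higher and 8 lower, with a median of 0.88. Of 72 plastid rows 8 were higher and 3 lower, and of all genes 40.7% were higher and 33.1% lower. The storage proteins took 0.929 to 1.59% of counts in this line against 4.93 to 5.47% in wild type, and the 2 endosperm markers summed to 5098 to 6747 CPM against 21942 to 23180 CPM. The part of either in the result was not tested.

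For part of the members the double mutant lay below the sum of its single mutants. Against abi3-12 alone 45 members were lower, with a median of -1.80 (30.4% of all genes lower). The interaction of abi3-12 and dog1-4 in dry seed was below 0 for 21 of 55 members, with a median of -1.16 (20.9% of all genes), and for atp1 it was -1.41 ± 0.37 (adjusted p = 0.00168). For cox3 it was -1.21 ± 0.47 (adjusted p = 0.0345), and for ATMG01200, the largest with a mean of at least 5 CPM, -1.41 ± 0.32 (adjusted p = 0.000214). Library totals gave 11 members and a fit of the 4 groups alone 40 of 49. Leaving out any 1 library gave 14 to 20 members.

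Along its own course abi3-12 dog1-4 had a higher summed level than wild type at 18 DAP and a lower one from 22 DAP, apart from 1 library at 24 DAP. The 88 members summed to 92.6, 115 and 122 CPM at 18 DAP against 53.6, 61.9 and 62.0 CPM in wild type, and 9 members were higher, 16.4% of them, below the 21.8% of all genes. At 22 DAP the sums were 16.0, 33.0 and 50.1 CPM, all below wild type, and 28 members were lower (35.7% of all genes). Without abi3-12 dog1-4 22 DAP replicate 1 11 were called, and without wild type 22 DAP replicate 1 it was 14.

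At 24 DAP the libraries of abi3-12 dog1-4 stood apart from each other, at 272, 92.7 and 55.2 CPM, and the highest also had the fewest counts of all libraries, 2577281. At this stage 29 members were lower than in wild type (31.5% of all genes), 40 without replicate 1 and 13 without replicate 3. From 22 to 24 DAP 30 members rose within the line (19.8% of all genes), and 19 without 24 DAP replicate 1. Without 22 DAP replicate 1 the count was 17.

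From 20 DAP to dry seed 42 members rose in wild type batch B (28.3% of all genes) and 10 rose and 7 fell in abi3-12 dog1-4 (34.8% of all genes rose). That change was lower than in wild type for 26 members by the test of the difference (20.4% of all genes). The 24 against 22 DAP step was also seen in dog1-4, with 34 members up (11% of all genes), and in abi3-12, with 28 up and 1 down (10.8% of all genes up).

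**Figure D4:**
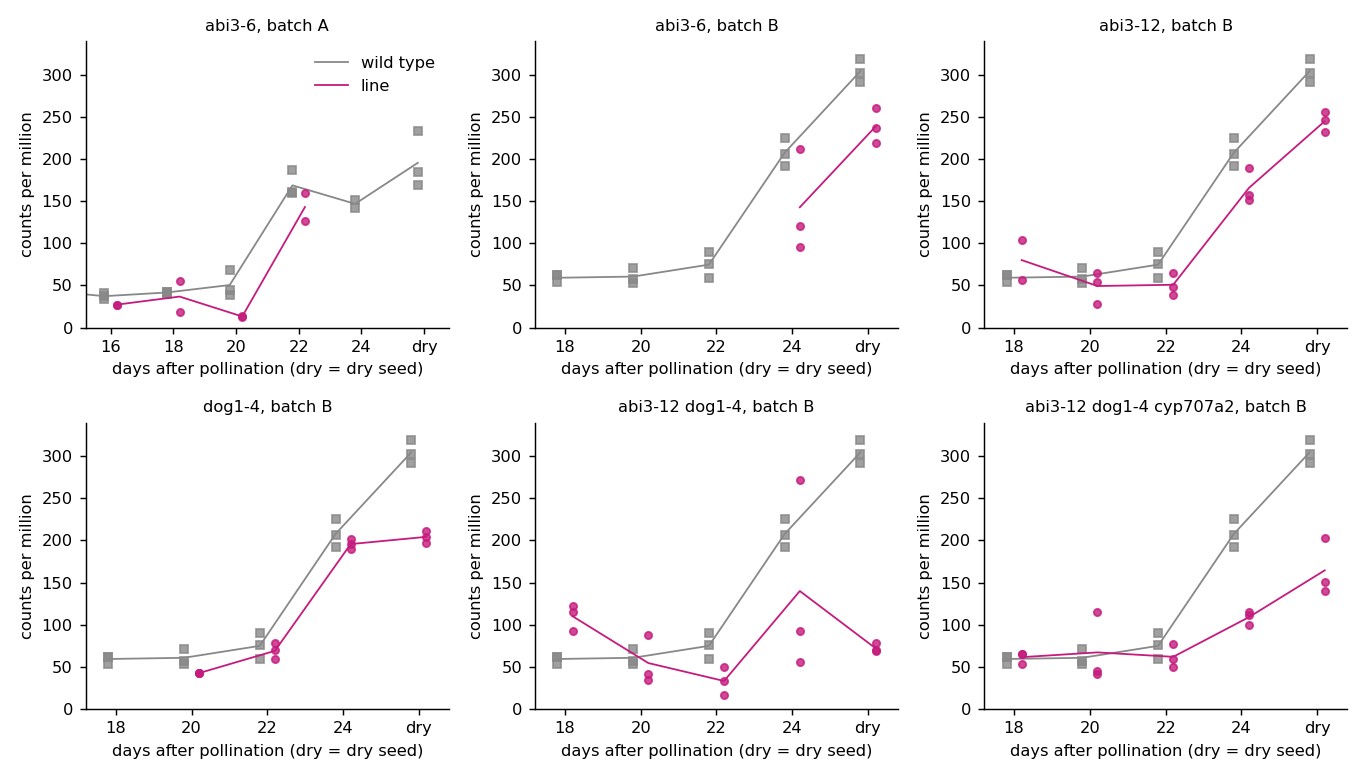
Summed CPM (TMM-scaled) of the 88 members against days after pollination in 5 lines (circles) and the wild type of the same batch (squares), with points for libraries and lines through means. abi3-6 is lowest at 20 DAP, and abi3-12 dog1-4 ends at 68.1 to 77.7 CPM, with 3 widely spread libraries at 24 DAP.

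Against abi3-12 dog1-4, the line that also lacks CYP707A2 had a higher summed level in dry seed and a lower one at 18 DAP. At 20, 22 and 24 DAP the libraries of these lines overlapped. In dry seed the 88 members summed to 151, 203 and 140.0 CPM in the triple line against 77.7, 68.1 and 69.8 CPM in abi3-12 dog1-4, without overlap. Of 55 members 36 were higher and none lower, with a median of 1.12 (28% of all genes higher). Transcripts of atp1 stood at 19.7, 26.1 and 17.7 CPM against 8.70, 7.96 and 7.75 CPM, 1.37 ± 0.28 (adjusted p = 1.96e-05). Those of cox3 gave 1.42 ± 0.36 (adjusted p = 0.00044), those of rps4 1.25 ± 0.37 (adjusted p = 0.00254) and ATMG01360, the largest called rise with a mean of at least 5 CPM, 1.73 ± 0.31 (adjusted p = 2.13e-06). The plastid rows were higher as well, 38 of 72, and their part in the result was not tested. Of the 51 nuclear subunit genes of complexes I to V, 9 were higher (28% of all genes) and 36 lower (34.3%).

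At 22 DAP 21 members were higher in the triple line than in abi3-12 dog1-4 (31.9% of all genes), with atp1 at 0.91 ± 0.35 (adjusted p = 0.0191), a share of the members near that of all genes. At 18 DAP the sums were 65.2, 65.6 and 53.2 CPM in the triple line, all below the 92.6, 115 and 122 CPM in abi3-12 dog1-4. None was called higher there and 2 were lower, with a median of -0.76 (2.49% of all genes lower), and 20 members had an unadjusted p under 0.05. At 20 DAP none changed by edgeR or DESeq2, and 1 had an unadjusted p under 0.05 (5.83% of all genes changed). At 24 DAP, where abi3-12 dog1-4 had its scattered libraries, 1 was higher (24% of all genes) and 4 were lower (29.7%). Against wild type the triple line remained low, with 32 members lower at 24 DAP (21.3% of all genes) and 28 in dry seed, where atp1 gave -1.44 ± 0.26 (adjusted p = 3.84e-06) and ATMG00640, the largest called fall, -1.79 ± 0.28 (adjusted p = 1.59e-07). Within the line 7 members rose from 22 to 24 DAP (4.03% of all genes). The change from 20 DAP to dry seed was lower than in wild type for 6 members, 10.9% of them beside 9.4% of all genes.

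The members did not all fall alike in the combined lines. In abi3-12 dog1-4 aba2-1, cox3 had the largest called fall with a mean of at least 5 CPM, -2.41 ± 0.35 (adjusted p = 6.77e-09), at 1.25, 1.14 and 1.08 CPM. The subunit II-like row of the same complex, ATMG01280, stood at 1.91, 1.99 and 2.15 CPM beside 2.29, 1.86 and 1.79 CPM in wild type, 0.03 ± 0.27 (adjusted p = 0.944). Within the ATP synthase, atp1 was lower in this line by -2.21 ± 0.27 (adjusted p = 5.85e-11), and atp9 stood at 7.13, 5.58 and 5.20 CPM against 6.58, 7.96 and 8.08 CPM in wild type. In abi3-12 aba2-1, atp1 gave -1.85 ± 0.27 (adjusted p = 1.15e-08) and cox3 -1.86 ± 0.33 (adjusted p = 1.96e-06). In dog1-4, atp9 stood at 9.25, 12.2 and 9.47 CPM, above each wild-type library, yet its 0.45 ± 0.22 did not pass the test (adjusted p = 0.118). In abi3-12 dog1-4 it was lower, -1.26 ± 0.24 (adjusted p = 2.89e-06), and its rise with loss of CYP707A2, 0.49 ± 0.24, did not pass (adjusted p = 0.0679). Differences between members were not tested.

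**Figure D5:**
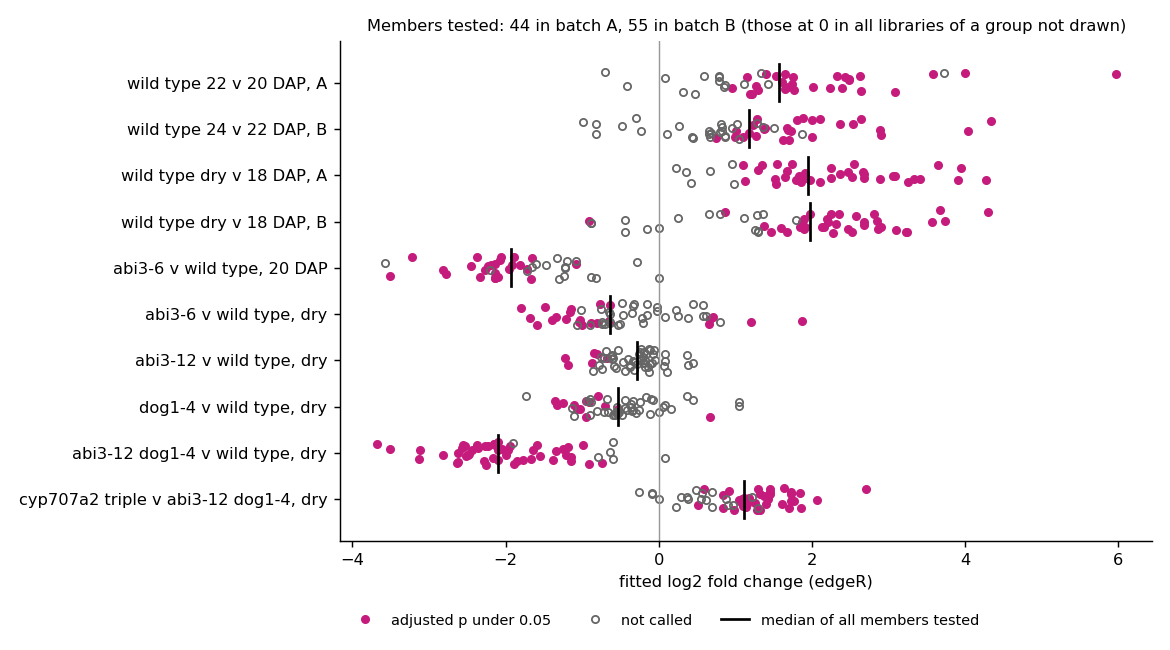
Fitted log2 fold changes of tested members (points, filled where adjusted p is under 0.05) in 10 comparisons, with the median of all members tested as a line and members at 0 in every library of a group left out. The wild-type steps lie mostly above 0, abi3-12 dog1-4 dry seed lies at a median of -2.10, and the single mutants abi3-12 and dog1-4 lie nearer 0.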

How the data were processed

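Poly(A)-selected, strand-specific libraries primed with random hexamers were made by the authors, per the labels' protocols. The deposited table holds raw counts per gene. The submitters' processing notes name HISAT2 2.1.0, StringTie 1.3.2, Cufflinks, SAMtools and TAIR10, without roles. How reads with several matches were counted is not given in the sources used here. Counts were tested in R 4.3.3 with edgeR 4.0.16 (quasi-likelihood test, TMM factors, filterByExpr with a minimum count of 10, 1 coefficient per group), separately in batch A (31 libraries, 20414 genes) and batch B (92 libraries, 20912 genes), and in a joint fit of the 38 wild-type libraries (19126 genes). P-values were adjusted by Benjamini-Hochberg over all genes of a fit and called under 0.05. Levels are CPM of the TMM-scaled library size. DESeq2 1.42.0 was an alternative. The test was checked on simulated data for a batch A comparison. Only genes with higher counts were changed there, so the check does not cover members with few counts. Replicate numbers were not taken as pairs, since same-numbered libraries did not deviate together (mean correlation of deviations 0.007 in batch A, lowest -0.115). The members and lists were chosen with earlier results of these data known. The rule for named members took the highest members of each role list, the highest rows in no list, and in each main comparison the called member with the largest rise and fall at a mean of at least 5 CPM. It was narrowed to members that RefSeq annotates and those named by size of change, and nad3, rpl5, ATMG00280 and ATMG01280 were also chosen with their values seen. Coordinates are those of TAIR10.1. The filter passes a member that is high in 1 group, so counts are of members tested.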

Additional observations from a re-analysis of the deposited data

Results flagged for a closer look

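In 5 comparisons the change of members differed between groups by a test of the difference itself. In dry seed the interaction of abi3-12 and dog1-4 was called for 21 members, all below 0 (38.2% of those tested, beside 20.9% of all genes). With any 1 library left out this count was 14 to 20. The change from 20 DAP to dry seed differed from wild type for 26 members in abi3-12 dog1-4, all lower (47.3%, beside 20.4% of all genes). In abi3-12 dog1-4 cyp707a2 it differed for 6, all lower (10.9%, near the 9.4% of all genes). The rise from 20 to 22 DAP was larger in abi3-6 than in wild type for 10 members (22.7%, near the 18.4% of all genes). The change of 22 DAP against dry seed differed between the wild-type batches for 28 members, all lower in batch B (59.6%). Of all genes 4.88% were lower there and 5.65% higher.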

How the results depend on the processing

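The 14 main counts of called members moved by less than 1.5 times with RLE factors. A replicate block changed no call of these counts by more than that (26 in abi3-6 at 20 DAP, 48 in dry abi3-12 dog1-4), and the numbers did not pair the libraries (mean correlation -0.0001 in batch B, lowest -0.307). Library totals moved the median of all genes by over 0.1 in many comparisons, by 0.72 in dry abi3-6. They gave 4 called members for 18 against 12 DAP in batch A, 7 for abi3-6 at 20 DAP, 19 in dry abi3-6 (13 higher, 6 lower), 3 in abi3-12, 7 in dog1-4 (4 higher, 3 lower), 15 in abi3-12 dog1-4 cyp707a2 and 11 for the interaction. They also turned the balance in abi3-6 at 16 DAP (4 called), 18 DAP (23 called) and 22 DAP (13 called), and the change of ATMG00020 (0.15) and ATMG01390 (0.44) from 18 DAP to dry seed in batch B. For atp1 in dry abi3-6 the change was 0.069 with RLE factors, 0.40 with library totals and 0.071 with DESeq2. The 18 against 12 DAP count was 2 with factors from nuclear genes, and 3 with no filter, with DESeq2 and with a fit of the groups compared, where 2 rose and 1 fell. Fits of the groups compared gave 8 for abi3-6 at 20 DAP, 18 for abi3-12, 23 for dog1-4, 15 for aba2-1 and 40 for the interaction, and no filter gave 0 for aba2-1. The cause of these moves was not tested.

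Leaving out 1 library gave 0 to 2 calls for 18 against 12 DAP, 13 to 28 for abi3-6 at 20 DAP, 3 to 6 for abi3-12, 5 to 10 for dog1-4 and 0 to 1 for aba2-1. It gave 14 to 20 for the interaction of abi3-12 and dog1-4. For dry abi3-12 dog1-4 cyp707a2 it gave 20 to 31 against wild type and 25 to 37 against abi3-12 dog1-4. For steps added after seeing the data it gave 23 to 31 from 20 to 22 DAP in batch A and 15 to 27 from 22 to 24 DAP in batch B. Members with few counts limit these counts, since 35 of 90 could not be tested in any batch.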

Other observations

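Members were listed at 0 more often than nuclear genes where the other libraries of their group led to at least 10 expected counts. This held for 40 of 3384 such values of members (1.18%, 9 rows) and for 3454 of 1971973 of nuclear genes (0.175%, 1752 rows). ATMG00580 accounted for 14 of the 40, with up to 68.4 counts expected, and ATMG00285 for 8. The difference was not tested.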
